A study of Mus musculus with 36 samples.

Results

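Gene expression in the atria and the ventricles of the mouse heart was compared at E14.5, where E gives the embryonic day. The comparison rests on 6 of the 36 arrays of a heart development series. They were chosen by their titles: 3 arrays of that day whose title ends in the letter A, with the atrial chamber as source, and 3 arrays without the letter, with both ventricles as source. All embryos were C57BL/6 from timed matings, and no allele, treatment or sex is named for any group. From E12.5 on, hearts were dissected out and the atria were cut from the ventricles. The labels do not say how many hearts went into a sample or whether the 3 samples of a group came from separate litters. The spread between samples of a group may therefore be technical. The p-values below rest on this spread pooled over all groups of the series, not on that of the 6 compared arrays alone. Every value is the brightness of a probe set (intensity), and differences are atrium minus ventricle on the log2(intensity + 17) scale, so that 1 is a 2-fold difference. The atrial and ventricular arrays of E13.5 and E16.5, 6 of each age, served as neighbouring ages. The E16.5 arrays are described as E15.5 outside their titles, and the age in the titles is used here.

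Atrial and ventricular muscle start from a common heart tube and then take on separate programmes. Atrial identity depends on the nuclear receptors COUP-TFI and COUP-TFII (Nr2f1 and Nr2f2) and on the T-box factor Tbx5, and atrial muscle uses its own light chains and the calcium pump inhibitor sarcolipin (Sln). Ventricular identity depends on the Iroquois factor Irx4 and the repressor Hey2, which hold atrial genes down in the ventricle, and ventricular muscle is rich in the light chain Myl2, the heavy chain Myh7 and myoglobin (Mb). At midgestation the sinus node, the atrioventricular cushions and the venous inlets lie against or within the atria, so an atrial dissection can carry them along.

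The promoters of one atrial and one ventricular muscle gene are shown as examples in which the motif of a heart factor has a match. Mybphl encodes an atrial myosin-binding protein. Myl2 encodes the ventricular regulatory light chain, for which the first of the 2 start sites listed was taken. The sequences are from RefSeq on GRCm38.p6, both on the plus strand and given 5′ to 3′, from 250 bases before to 50 bases after the start site. Capitals mark a match to AGATAA, a binding motif of the GATA factors.
Mybphl, chr3:108364661-108364960: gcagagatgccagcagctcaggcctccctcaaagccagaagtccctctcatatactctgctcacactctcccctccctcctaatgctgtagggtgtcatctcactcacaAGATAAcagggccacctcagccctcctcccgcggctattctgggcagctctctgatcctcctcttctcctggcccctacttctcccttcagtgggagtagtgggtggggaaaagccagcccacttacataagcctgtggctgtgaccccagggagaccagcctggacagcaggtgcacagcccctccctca
Myl2, chr5:122092474-122092773: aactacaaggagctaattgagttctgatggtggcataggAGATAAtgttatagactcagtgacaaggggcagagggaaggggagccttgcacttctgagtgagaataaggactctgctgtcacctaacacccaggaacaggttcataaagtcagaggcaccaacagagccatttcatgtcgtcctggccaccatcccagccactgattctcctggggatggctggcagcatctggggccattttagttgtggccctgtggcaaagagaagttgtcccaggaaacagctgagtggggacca
The match lies 141 to 136 bases before the start of Mybphl and 211 to 206 bases before that of Myl2. Among all 27025 promoters of this length, 11.4% held AGATAA on either strand. The share was 6.9% of the 116 matched promoters among 146 genes that were higher in atria at both neighbouring ages, and 2.35% of 85 among 110 genes that were lower, sets that are defined further on. The T-box motif AGGTGT was present in 13.9% of all promoters, 15.5% of the atrial set and 9.41% of the ventricular set. The E-box CACGTG, which Hey factors can bind, was present in 7.24%, 10.3% and 9.41%. The NK-2 motif TNAAGTG was found in 11.5%, 9.48% and 10.6%, and the MEF2 motif in 3.26%, 4.31% and 2.35%. Both strands were searched, CACGTG reads the same on each, and the motifs do not contain one another. A match describes the letters of this window and is no evidence of binding.

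Each array was first checked against its label with genes that mark the chambers at the neighbouring ages. Ventricular array 1 stood apart from the other 5 arrays in technical measures. It had the highest single intensity (26432) and the highest median intensity (210.7) of all 36 arrays, and its log2 values correlated with those of ventricular arrays 2 and 3 at 0.945 and 0.950 against 0.973 between those arrays. On this array 1095 probe sets that were too dim to be tested lay above the median of all values, against 39 to 81 on the other arrays of E14.5. The 3 atrial arrays correlated with each other at 0.953 to 0.962. Atrial arrays 1 and 2 correlated with ventricular array 3 at 0.958 and 0.964, close to the 0.962 between them, while atrial array 3 correlated with it at 0.935. Results that rest on ventricular array 1, or on atrial arrays 1 and 2, are given with and without them. Where atrial arrays 1 and 2 are left out, array 3 alone stands for the atria and is taken to vary as the other groups of the series do. Array 3 was singled out by its levels of chamber genes. What those genes show with it alone, or without it, is therefore no independent result.

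Irx4, the ventricle-restricted Iroquois factor, had intensities of 1281, 792 and 137 on atrial arrays 1, 2 and 3, against 1485, 1803 and 1706 on the ventricular arrays. Expressed against the ventricular mean, the 3 atrial arrays stood at 76.9%, 47.6% and 8.24%. The same measure was 0.938% to 2.67% in atria of E13.5 and 0.839% to 19.9% in atria of E16.5. Atrial arrays 1 and 2 therefore lay closer to the ventricles than any atrial array of the neighbouring ages, and array 3 lay within the range of E16.5. The atrial and ventricular arrays did not overlap, but the SD over the atrial arrays was 1.61 on the log2 scale against 0.14 over the ventricular ones (n = 3 each), and the difference of -1.62 ± 0.82 (SE) was not called (limma, adjusted p = 0.241). At E13.5 and E16.5 the differences were -5.33 and -4.59.

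Other ventricular genes were also lowest on atrial array 3. Hey2, the Notch-related repressor of atrial genes in ventricular muscle, measured 2016, 1162 and 268 on atrial arrays 1 to 3 and 2286, 2356 and 2604 in the ventricles. Mb, the oxygen store of ventricular muscle, measured 4192, 5791 and 429 against 13312, 7505 and 9256. Kcne1, a potassium channel subunit, measured 1782, 1098 and 98 against 2948, 1524 and 1743. For these genes atrial array 3 stood at 11.1%, 4.28% and 4.73% of the ventricular mean, whereas array 1 stood at 83.5%, 41.8% and 86% and array 2 at 48.1%, 57.8% and 53%. The differences over the 3 arrays, -1.46 for Hey2, -2.14 for Mb and -1.71 for Kcne1, were not called (adjusted p = 0.105, 0.0741 and 0.263). With atrial array 3 alone, the lowest array for these genes, they were -3.09, -4.45 and -4.12. Irx4 then differed by -3.44.

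Myl2 was high on every atrial array. It measured 12718, 20031 and 6961 in atria and 25225, 15480 and 15787 in ventricles, so that the groups overlapped and atrial array 2 exceeded ventricular arrays 2 and 3. Atrial array 3 held 37% of the ventricular mean, above the 7.32% to 26.2% of atria at E13.5 and within the 3.91% to 110% of atria at E16.5. The top of that last range was again atrial array 2 of E16.5, at 16782.2 against 1556.5 and 593.6 on the others. The difference was -0.60 ± 0.77 (adjusted p = 0.687), and -1.40 with atrial array 3 alone (adjusted p = 0.495). Myl3 and Myh7, 2 further contractile genes of the ventricle, gave -0.75 and -0.96 (adjusted p = 0.301 and 0.329) with the same order of the arrays: 5501 on atrial array 3 for Myl3 against 12574 and 18010 on arrays 1 and 2, and 3450 for Myh7 against 12778 and 17911. These 3 genes are among the brightest on the array. Ventricular array 1 and atrial array 2, the arrays of E14.5 with the highest single intensities (26432 and 21703), also gave their highest readings within their groups.

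**Figure D1:**
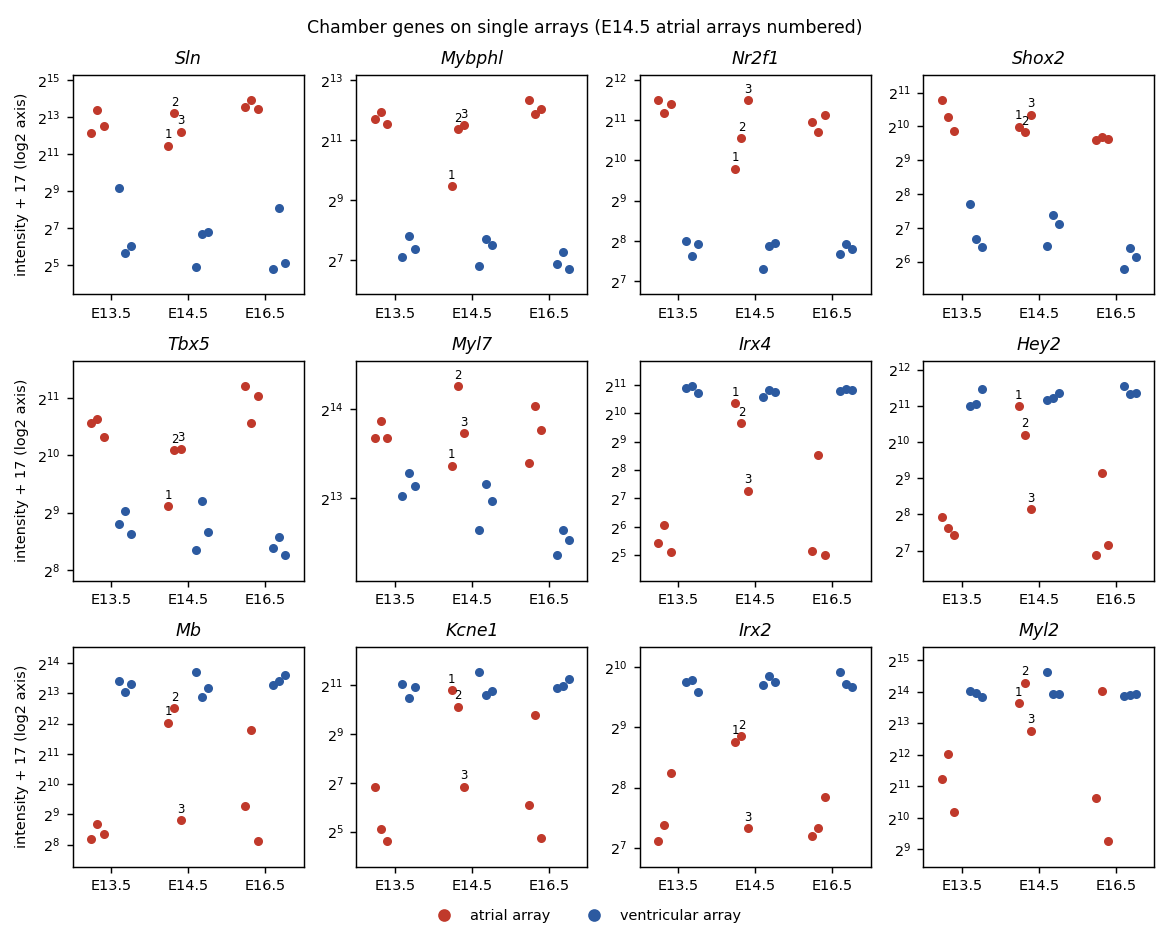
Intensity plus 17 (log2 axis) of 6 atrial and 6 ventricular genes on every atrial (red) and ventricular (blue) array at E13.5, E14.5 and E16.5; each point is 1 array, and numbers mark the E14.5 atrial arrays. Irx4, Hey2, Mb and Kcne1 are higher on E14.5 atrial arrays 1 and 2 than on array 3, and 1 atrial array of E16.5 also lies above its group for these genes.

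The list of 18 ventricular chamber genes, all measured, was summarised next. No member was called higher and 3 were called lower, Irx2, Hand1 and Cited1, with a median difference of -0.83 against 0.00 over all 12983 genes tested. Over all genes 2.37% were called lower (308) and 5.11% higher (663). Irx2, a ventricular Iroquois factor, measured 417, 446 and 143 in atria and 819, 904 and 850 in ventricles, a difference of -1.46 ± 0.31 (adjusted p = 0.00395). Hand1, a transcription factor of the left ventricle, measured 727, 419 and 270 against 721, 1066 and 911, which overlapped (-1.0 ± 0.29, adjusted p = 0.0331). Cited1, a transcriptional coregulator, measured 2462, 4001 and 2512 against 3958, 5855 and 4907, which also overlapped (-0.73 ± 0.20, adjusted p = 0.024). Without ventricular array 1, Irx2 and Cited1 were still called and Hand1 was not (adjusted p = 0.0542). Leaving out atrial array 3 ended all 3 calls (adjusted p = 0.0656, 0.137 and 0.255 for Irx2, Cited1 and Hand1). The call of Cited1 also ended without atrial array 1 or ventricular array 2 or 3 (adjusted p = 0.0508 to 0.0979), and that of Hand1 without atrial array 2 or ventricular array 2 or 3 (adjusted p = 0.0648 to 0.0995).

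With atrial array 3 alone the median difference of the 18 ventricular genes was -1.75. That array was singled out by its low levels of such genes, so this size is no independent result. Pln, which encodes the calcium pump inhibitor phospholamban, measured 7778, 11501 and 3293 in atria against 15866, 9642 and 10858. Its difference was -0.83 with all 3 atrial arrays (adjusted p = 0.0721) and -1.84 with atrial array 3 alone. Ckm, the muscle creatine kinase, measured 7389, 12248 and 947 against 12668, 4326 and 8785, and its sign turned without atrial array 3 (0.28). On atrial array 3 the lowest of the 3 atrial values was found for 15 of the 18 genes. The exceptions were Irx5, Nppb and Cited1. Irx5, an Iroquois factor, measured 804, 1209 and 1277 against 1049, 1477 and 1466. Nppb, which encodes B-type natriuretic peptide, measured 2543, 8483 and 6657 against 5249, 5830 and 4759. The summed intensity of the list was 78189, 113144 and 38725 on the atrial arrays and 98080 to 148249 on the ventricular arrays, and in atria of E13.5 and E16.5 it was 29008 to 41026 and 39492 to 99532. In tissue samples such as these, fewer cells of a type and less RNA per cell cannot be told apart.

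A yardstick drawn from the chamber levels of E13.5 and E16.5 was then applied to every array. Genes were taken that were called at both E13.5 and E16.5 and at least 2-fold apart in the same direction at both ages. These calls use the spread pooled over all groups, E14.5 included. The intensity filter and the choice of probe sets also use all arrays. The rule gave an atrial set of 146 genes (1.12% of those tested) and a ventricular set of 110 genes (0.847%). For each gene an array was given a position between the mean atrial level (0) and the mean ventricular level (1) of those ages on the log2 scale. For the ventricular set the median positions of atrial arrays 1, 2 and 3 were 0.69, 0.53 and 0.01, and those of the ventricular arrays were 0.94, 0.83 and 0.97. Single atrial arrays of E13.5 lay between -0.18 and -0.12 and those of E16.5 between -0.03 and 0.40. The arrays of these ages define positions 0 and 1 and served to choose the genes. For both sets they therefore lie near 0 or 1 partly by construction. The levels of E14.5 do not enter the positions, and how much of their distance comes from this was not tested. On atrial array 1, 87 of the 110 genes (79.1%) lay nearer to the ventricular level, on array 2 61 (55.5%) and on array 3 7 (6.36%). Atrial array 3 gave the lowest of the 3 values for 105 of the 110 genes. On the intensity scale the median positions were 0.55, 0.39 and -0.02, so that the order did not depend on the log scale.

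The atrial set placed the arrays in the same order. Median positions were 0.56, 0.23 and 0.01 for atrial arrays 1, 2 and 3 and 1.04, 0.87 and 0.97 for the ventricular arrays. Atrial array 1 gave the lowest of the 3 values for 107 of the 146 genes. On it 83 genes (56.8%) lay nearer to the ventricular level, against 15 (10.3%) on array 2 and 7 (4.79%) on array 3. Array 1 was thus low for atrial genes and high for ventricular ones. Array 2 lay at 0.23 for the atrial set, above the -0.06 to 0.04 of single atrial arrays of the neighbouring ages, which themselves define position 0. On the intensity scale array 2 lay at 0.41. Array 3 lay at 0.01 for both sets, within the range of the neighbouring ages for the atrial set. For the ventricular set this was above the -0.18 to -0.12 of E13.5 and within the -0.03 to 0.40 of E16.5.

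**Figure D2:**
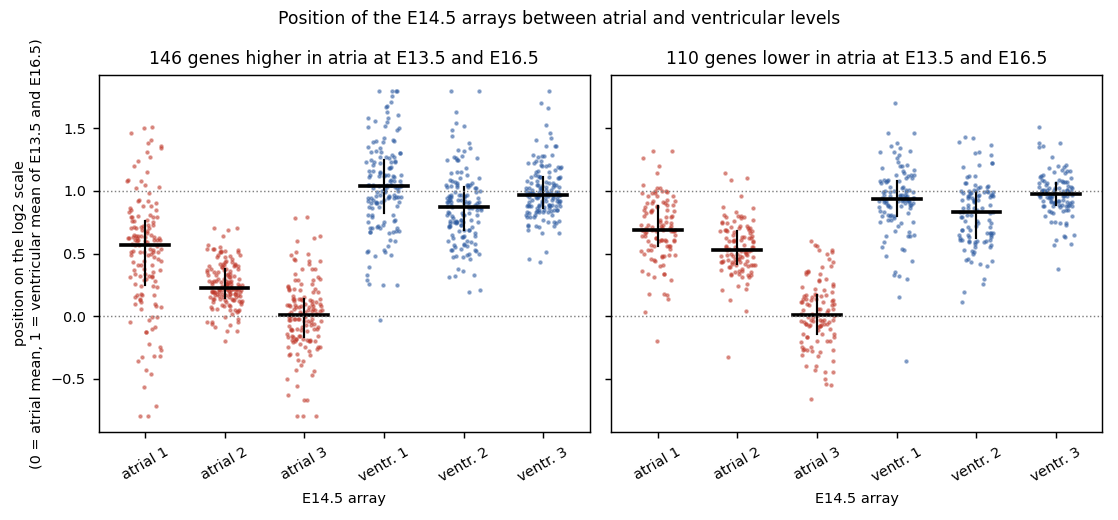
Position of each E14.5 array between the mean atrial (0) and mean ventricular (1) log2 level of E13.5 and E16.5, for the 146 genes higher and the 110 genes lower in atria at both ages; dots are genes (those beyond the axis range are drawn at -0.8 or 1.8), thick lines medians and thin lines quartiles. The median for the ventricular set is 0.69 on atrial array 1, 0.53 on array 2 and 0.01 on array 3, while the ventricular arrays lie between 0.83 and 0.97.

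The sets were next followed through the E14.5 comparison. Of the 146 atrial genes, 145 kept their sign and 100 were called higher (68.5%, against 5.11% of all genes). Of the 110 ventricular genes, 109 kept their sign and 34 were called lower (30.9%, against 2.37% of all genes). The median difference of the atrial set was 1.12 at E14.5, 1.49 at E13.5 and 1.67 at E16.5. That of the ventricular set was -0.79, -1.56 and -1.51, and 108 of its genes differed less at E14.5 than at both other ages. Genes chosen for a large difference at those ages can show a smaller one at another age through the choice alone, and the size of that effect was not tested. Atrial array 3 set against the same ventricular arrays gave medians of 1.65 and -1.44 for the same genes, array 1 gave 0.66 and -0.37, and array 2 gave 1.16 and -0.58.

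Without atrial array 3, 59 atrial and 5 ventricular genes were called, where 2.10% of all genes were called higher and 0.385% lower. Without ventricular array 1 the numbers were 73 and 19, where 1.90% of all genes were called higher and 0.655% lower.

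**Figure D3:**
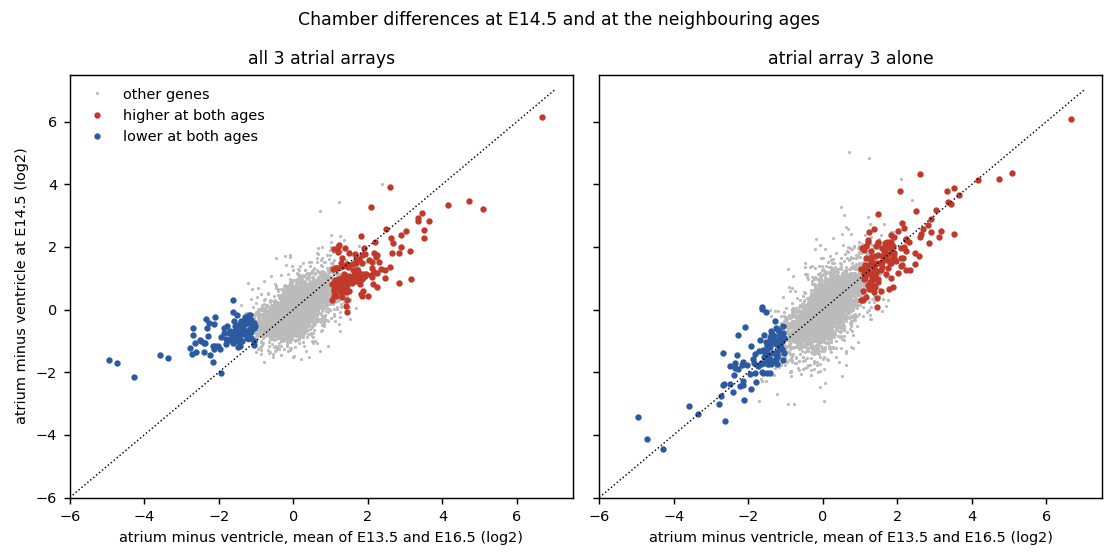
Atrium minus ventricle at E14.5 (log2, vertical) against the mean of the same difference at E13.5 and E16.5 (log2, horizontal) for every gene, with all 3 atrial arrays (left) and atrial array 3 alone (right); the dotted line marks equal differences, and coloured points are the 146 and 110 genes of the atrial and ventricular sets. The ventricular set lies above the line on the left, with a median of -0.79, and nearer to it on the right, with -1.44.

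The difference between the ages was tested directly, as the E14.5 difference minus the mean of those at E13.5 and E16.5. No probe set of 27256 was called (limma; 0% called, smallest adjusted p = 0.207), with 2512 at an unadjusted p below 0.05. Irx4, Kcne1, Mb and Hey2 differed from the neighbouring ages by 3.34, 3.02, 2.14 and 2.13, the direction of a smaller chamber difference at E14.5, and were not called (adjusted p = 0.328, 0.41, 0.46 and 0.345). Without atrial array 3, 65 probe sets were called (0.238%), 41 of them upward, and of the 40 genes they represent 11 belonged to the ventricular set and 5 to the atrial set. All 11 moved upward and all 5 downward. Both sets were chosen on the E13.5 and E16.5 differences that enter this test, so that direction is no independent result. Hey2 differed from the neighbouring ages by 2.94 in that fit (adjusted p = 0.0435) and Ddc, the gene of dopa decarboxylase, by 2.72 (adjusted p = 0.0435). Nr2f2 differed by -0.88 (adjusted p = 0.0421). With atrial array 3 alone 4 probe sets were called, 2 of them representing a gene, Krt31 and Ebf3, and neither belongs to the sets.

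Of 17 measured members of the atrial chamber list, 12 were called higher, none lower and 5 neither, with a median difference of 1.07, where 5.11% of all genes were called higher. There were 9 without ventricular array 1 and 8 without atrial array 3, where 1.90% and 2.10% of all genes were called higher. Sln had the largest difference of all called genes. It measured 2804, 9558 and 4735 in atria and 14, 86 and 96 in ventricles (6.16 ± 0.99, adjusted p = 0.000297). The ventricular values lay below the median of all values, so the size of the Sln difference depends on the settings: it was 6.66 with a pseudocount of 1 and 5.33 with one of 68. It was 3.66 as the mean of its 2 probe sets, of which 1 was called. Mybphl measured 689, 2635 and 2858 against 93, 189 and 164 (3.45 ± 0.37, adjusted p = 6.64e-07). Both genes were lowest on atrial array 1, yet that array exceeded every ventricular array. Nr2f1 measured 872, 1487 and 2860 against 141, 215 and 230 (2.91 ± 0.29, adjusted p = 2.54e-07), and Nr2f2 750, 954 and 1364 against 518, 676 and 545 (0.77 ± 0.15, adjusted p = 0.00236). These nuclear receptors were lowest on atrial array 1 and highest on array 3, the reverse of the order of Irx4. Dkk3, which encodes a secreted Dickkopf protein, measured 2521, 2829 and 2922 against 339, 832 and 490 (2.37 ± 0.26, adjusted p = 1e-06). It varied little over the atrial arrays (SD 0.11 on the log2 scale) and more over the ventricular ones (0.63). Stard10, a lipid transfer gene, measured 2054, 4262 and 5248 against 1021, 1151 and 1123 (1.69 ± 0.18).

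Channels and growth factors of atrial muscle were called as well. Kcnj3 and Kcnj5 encode the subunits of the acetylcholine-gated potassium channel of the atria. They were higher by 1.11 and 0.77 (adjusted p = 0.00729 and 0.0119), with Kcnj3 at 295, 768 and 849 against 212, 299 and 272. Angpt1, an angiopoietin made by atrial muscle, measured 1211, 5038 and 4356 against 1118, 1240 and 1330 (1.27 ± 0.29, adjusted p = 0.0076), and its lowest atrial value lay among the ventricular ones. Hey1, the atrial counterpart of Hey2, measured 774, 804 and 1097 against 335, 287 and 407 (1.33 ± 0.16, adjusted p = 3.65e-06). Tbx5 measured 539, 1075 and 1095 against 307, 572 and 386, an overlap through atrial array 1 (1.04 ± 0.25, adjusted p = 0.0105). Myl7, the atrial regulatory light chain, measured 10526, 19616 and 13553 against 6341, 9154 and 7968 (0.86 ± 0.21, adjusted p = 0.0147). Without ventricular array 1 the calls of Myl7, Tbx5 and Kcnj3 were lost (adjusted p = 0.113, 0.101 and 0.0608). Without atrial array 3 those of Tbx5, Angpt1, Kcnj3 and Kcnj5 were lost (adjusted p = 0.0929, 0.0859, 0.0902 and 0.0802), and without atrial array 2 those of Myl7 and Angpt1 (adjusted p = 0.0818 and 0.0537).

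The 5 atrial genes that were not called were Nppa, Myl4, Bmp10, Gja5 and Kcna5. Nppa, which encodes atrial natriuretic peptide, measured 7676, 19967 and 13883 in atria and 14193, 12306 and 12024 in ventricles (0.01 ± 0.19, adjusted p = 0.989). Myl4, the atrial essential light chain, gave 0.08 ± 0.15 (adjusted p = 0.801). At this age both genes are also transcribed in ventricular trabeculae. Bmp10, a growth factor of trabecular muscle, measured 176, 1110 and 743 against 814, 729 and 692, with the lowest value on atrial array 1 (-0.47 ± 0.38, adjusted p = 0.487). Gja5, the connexin 40 gene, measured 153, 548 and 768 against 80, 358 and 206, and was called without atrial array 1 (adjusted p = 0.00927). Atrial array 1 gave the lowest of the 3 atrial values for 16 of the 17 genes. The summed intensity of the list was 44028 there, next to 40039 to 43294 on the ventricular arrays, and 92836 and 72776 on atrial arrays 2 and 3.

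Among the genes with the largest differences, those higher in atria held up better than those lower. In all, 1684 of 27256 probe sets (6.18%) were called, 1036 higher and 648 lower. The 10 largest positive differences with no overlap between the groups were those of Sln, Mfap4, Olfm1, Mybphl, Crabp1, Vsnl1, Isl1, Fgf12, Shox2 and Nr2f1. All 10 were called without ventricular array 1 and also with atrial array 3 alone, and 8 belonged to the atrial set of the neighbouring ages. Olfm1, which encodes a secreted olfactomedin, measured 527, 620 and 896 against 20, 34 and 32 (3.90 ± 0.38, adjusted p = 1.26e-07). Fgf12, an intracellular modulator of sodium channels, measured 233, 1558 and 2057 against 90, 108 and 58, so that atrial array 1 was far below the other atrial arrays (3.22 ± 0.58, adjusted p = 0.000942). Slc7a14 (46, 197 and 447 against 20, 13 and 12) and the guidance ligand Slit3 (183, 359 and 621 against 29, 45 and 30) were also lowest on atrial array 1 and highest on array 3, with differences of 2.54 and 2.84 (adjusted p = 0.00585 and 2.78e-06, with 0.0834 for Slc7a14 without atrial array 3).

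Among called genes without overlap the 10 largest negative differences were those of Ankrd9, Arid5a, Ntng1, Tff3, Pde11a, Krt31, Irx2, Otog, Etv2 and Egr3. Differences of Mb (-2.14), Kcne1 (-1.71) and Irx4 (-1.62) were as large but not called. Of these 10, 9 had a mean intensity below 300, and 7 had their highest ventricular value on array 1. Irx2 and Tff3 were the 2 called without ventricular array 1. Each of the 10 lost its call without at least 1 array: Irx2 without atrial array 3 (adjusted p = 0.0656), and Tff3 without atrial array 2 or 3 or ventricular array 2 or 3 (adjusted p = 0.0564 to 0.102). Arid5a, which encodes an RNA-binding protein, lost it without any of 5 arrays (adjusted p = 0.0647 to 0.305), and Egr3, an early response factor, without 3 (0.0566 to 0.189). Without 1 array the adjusted p reached 0.193 for Ntng1, 0.241 for Pde11a, 0.325 for Krt31 and 0.107 for Otog. Ankrd9 measured 62, 12 and 11 against 248, 156 and 81 (-2.03 ± 0.60, adjusted p = 0.039, and 0.0752 to 0.203 without any of 4 arrays). Etv2, an early endothelial regulator, measured 107, 35 and 120 against 298, 139 and 264 (-1.33 ± 0.30, adjusted p = 0.00673, with 0.0635 without ventricular array 1 and 0.0508 without atrial array 2). Over all genes called lower, 194 of 308 had their highest ventricular value on array 1 and 75 were also called without that array. Of the 663 genes called higher, 229 were called without it. Groups that did not overlap were found for 1533 genes above the ventricles (11.8%) and 1412 below (10.9%).

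**Figure D4:**
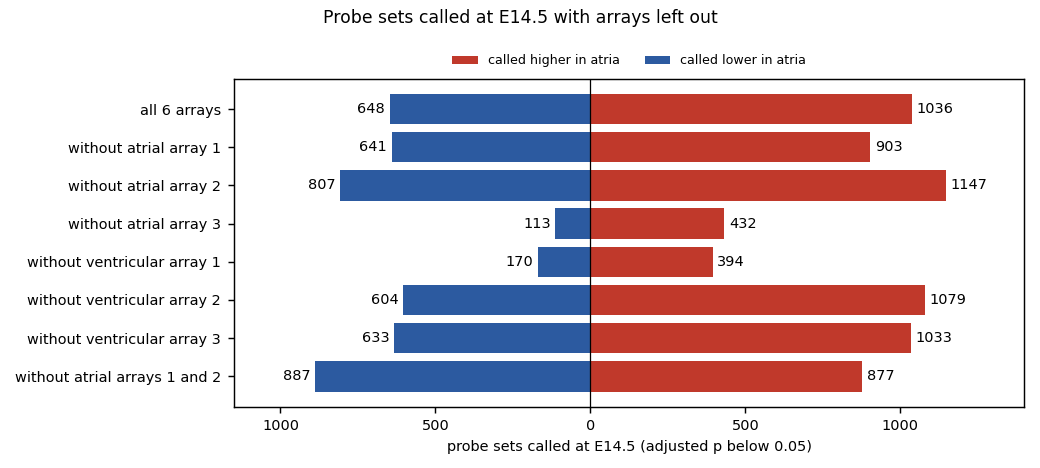
Number of probe sets called higher (red, right) and lower (blue, left) in atria at E14.5 with all 6 arrays and with arrays left out. The 648 lower calls fall to 113 without atrial array 3 and to 170 without ventricular array 1, and rise to 887 when atrial array 3 alone stands for the atria.

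Of 16 measured sinus node and conduction genes 6 were called higher, where 5.11% of all genes were. They were Shox2, Isl1, Vsnl1, Bmp4, Cacna1g and Cacna2d2. None was called lower, and the median was 0.75. Without ventricular array 1 there were 5, where 1.90% of all genes were called higher. Shox2, a regulator of the node, measured 1003, 901 and 1290 against 71, 150 and 122 (3.08 ± 0.43, adjusted p = 5.47e-05). Isl1, a factor of the second heart field and the node, measured 440, 115 and 399 against 17, 14 and 9 (3.28 ± 0.52, adjusted p = 0.000258). Vsnl1, a calcium sensor of the node, measured 749, 1076 and 2103 against 126, 103 and 82 (3.34 ± 0.31, adjusted p = 8.27e-08). Each atrial array exceeded each ventricular array for all 3 genes. Cacna1g, a T-type calcium channel, measured 702, 262 and 358 against 68, 129 and 176 (1.66 ± 0.36, adjusted p = 0.00503, and 0.0621 without ventricular array 1). At E13.5 and E16.5 its differences were -0.29 and -0.64, and the test against those ages gave 2.13 (adjusted p = 0.27). Without atrial array 3 that test passed, at 2.21 (adjusted p = 0.0456). The pacemaker channel Hcn4 had no measured probe set of its own.

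Of 24 measured fibroblast and matrix genes 10 were called higher and none lower (median 0.67), and of 23 cushion and valve genes 7 were called higher and none lower (median 0.49), against 5.11% of all genes called higher. The other 14 and 16 were not called. Without ventricular array 1 these counts were 7 and 3, where 1.90% of all genes were called higher. Atrial array 1 gave the highest atrial value for 18 of the 24 and for 15 of the 23. Eln, the elastin gene, measured 8760, 3981 and 913 against 950, 819 and 812, so that array 3 lay among the ventricular arrays (1.87 ± 0.51, adjusted p = 0.0252). Fbln5, an elastic fibre gene, measured 7234, 1210 and 481 against 204, 317 and 408 (2.38 ± 0.60, adjusted p = 0.0163). Without atrial array 1 these were not called (adjusted p = 0.177 and 0.139), nor without ventricular array 1 (adjusted p = 0.0745 and 0.102), and Eln was also lost without atrial array 2 or ventricular array 2 or 3 (adjusted p = 0.0526 to 0.0658). Mfap4, another elastic fibre gene, measured 2774, 538 and 712 against 30, 65 and 54 (4.0 ± 0.73, adjusted p = 0.00117). Pdgfra, a receptor of mesenchymal cells, measured 3314, 1640 and 2577 against 731, 1158 and 698 (1.5 ± 0.29, adjusted p = 0.002). Of its 3 tested probe sets 1 was called. At E13.5 and E16.5 Pdgfra gave -0.15 and 0.68, and neither was called (adjusted p = 0.805 and 0.107). Prrx1, a mesenchymal homeobox gene, measured 805, 296 and 613 against 174, 108 and 176 (1.71 ± 0.34, adjusted p = 0.00228), with 2 of 4 probe sets called. At E13.5 and E16.5 Prrx1 gave -0.23 and -0.21, and the test against those ages did not pass (adjusted p = 0.27) except without atrial array 2 (2.33, adjusted p = 0.0469). The matrix genes summed to 128896, 109532 and 87028 on the atrial arrays and to 64963 to 75822 on the ventricular arrays. Their part in the ventricular gene levels of atrial array 1 was not tested.

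Jag1, a Notch ligand of cushion and atrial tissue, had the smallest adjusted p of the comparison (1772, 1610 and 2465 against 438, 660 and 576, 1.77 ± 0.14, adjusted p = 2.6e-09). The receptor Notch2 was higher by 0.70 (adjusted p = 0.00337) and the endothelial ligand Dll4 lower by 0.52 on the log2 scale, at 339, 316 and 305 against 512, 428 and 458 (adjusted p = 0.0267). That call of Dll4 ended without atrial array 2 or 3 or ventricular array 1 (adjusted p = 0.0508 to 0.142). The other 15 of 18 Notch genes were not called, where 5.11% of all genes were called higher and 2.37% lower. Of 24 BMP and TGF-beta genes 10 were called higher and none lower (median 0.37). Without ventricular array 1 there were 3, where 1.90% of all genes were called higher. The 10 were the ligands Bmp2 and Tgfb3, the receptor Bmpr2, the binding proteins Fst and Ltbp1, the signal carriers Smad5 and Smad6, and the targets Id1, Id3 and Id4. Most of these 10 calls thus ended without ventricular array 1, while that of Tgfb3 remained (adjusted p = 0.0336). Fst lost its call without atrial array 1 or 3 or ventricular array 1 or 3 (adjusted p = 0.0511 to 0.182), Ltbp1 without ventricular array 1 (0.057) and Tgfb3 without atrial array 1 (0.0521). Bmp4, a ligand carried on the cushion list, measured 1194, 496 and 1411 against 380, 345 and 287 (1.45 ± 0.26, adjusted p = 0.000883). Bmp2, a ligand of the atrioventricular canal, measured 739, 285 and 228 against 22, 201 and 161 (1.74 ± 0.43, adjusted p = 0.0149). Its lowest value was on ventricular array 1, and the adjusted p was 0.19 without that array and 0.1 without atrial array 1. Of 12 retinoic acid genes 5 were called higher and none lower, against 5.11% of all genes called higher. There were 2 without ventricular array 1 and 2 without atrial array 3, where 1.90% and 2.10% of all genes were called higher. The synthesising enzymes Aldh1a2 (adjusted p = 0.0682 and 0.111) and Rdh10 (0.0917 and 0.329) were among those lost both times. Aldh1a1, a retinoic acid synthesising enzyme, measured 311, 239 and 283 against 34, 25 and 86 (2.29 ± 0.38, adjusted p = 0.000448). Crabp1, a retinoic acid binding protein, measured 345, 46 and 646 against 6, 4 and 8 (3.42 ± 0.66, adjusted p = 0.0019).

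Of 15 measured epicardial genes 8 were called higher and none lower (median 0.69), where 5.11% of all genes were called higher. Without ventricular array 1 there were 5, where 1.90% of all genes were called higher. Without atrial array 3 there were 4, where 2.10% were. Of the 15, 12 had their highest atrial value on array 3. Upk3b, a uroplakin of the mesothelial covering of the heart, measured 1982, 3055 and 4881 against 892, 1333 and 1030 (1.52 ± 0.24, adjusted p = 0.000291). Lrrn4, a mesothelial membrane protein, measured 612, 1084 and 1703 against 429, 561 and 433 (1.12 ± 0.22, adjusted p = 0.00203). On the atrial arrays the list summed to 13165, 14936 and 21906, against 8179 to 11113 on the ventricular arrays and 19971 to 23193 in atria of E13.5. Array 3 thus lay within the range of that age and arrays 1 and 2 between it and the ventricles.

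**Figure D5:**
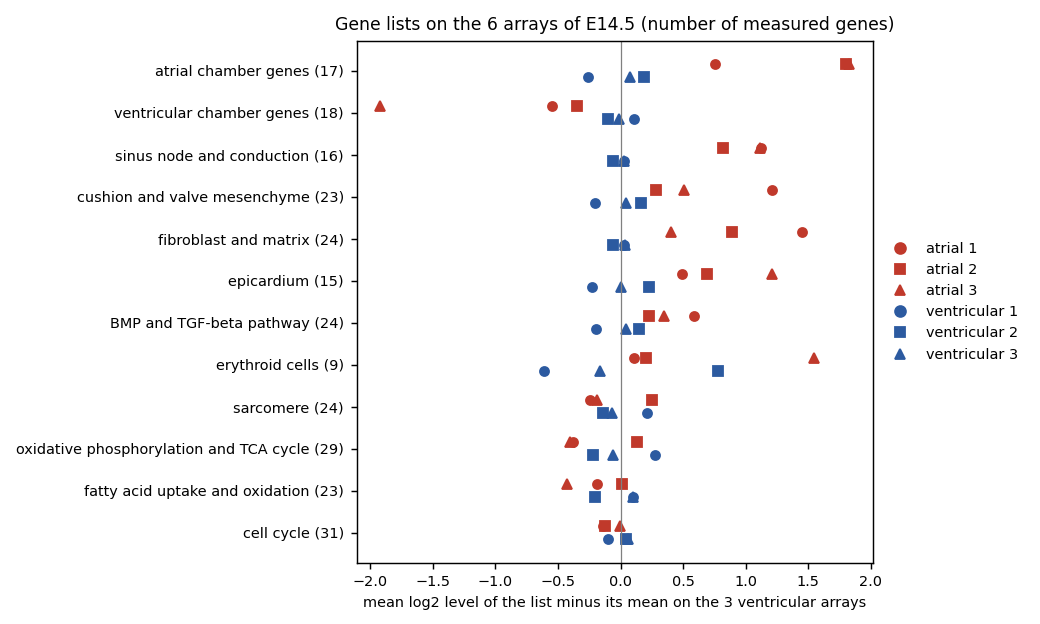
Mean log2 level of 12 gene lists on the 3 atrial (red) and 3 ventricular (blue) arrays of E14.5, relative to the mean of the 3 ventricular arrays; symbols mark the array number, and the count in brackets is the number of measured genes. The ventricular list separates atrial array 3 from arrays 1 and 2, the matrix and cushion lists are highest on atrial array 1, and the epicardial and erythroid lists are highest on atrial array 3.

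Markers of other cell types were read against the 5.11% of all genes called higher and the 2.37% called lower. Of 18 endothelial genes, Vwf, the von Willebrand factor gene, was higher (557, 857 and 941 against 358, 348 and 389, 1.04 ± 0.20, adjusted p = 0.00201) and Robo4, an endothelial guidance receptor, was lower by 0.61 on the log2 scale (adjusted p = 0.00641, with 0.0677 without ventricular array 1 and 0.0717 without atrial array 3). Of 13 macrophage and leukocyte genes the receptor Csf1r was called (0.73, adjusted p = 0.0314), and lost its call without atrial array 3 or any ventricular array (adjusted p = 0.0595 to 0.203). On the list of 6 thymus and lymphoid genes Lyve1 and Pdpn were higher by 1.03 and 0.48 (adjusted p = 0.0161 and 0.0186), and both calls were lost without ventricular array 1 (adjusted p = 0.14 and 0.138) or atrial array 3 (adjusted p = 0.113 and 0.145). Of 7 smooth muscle genes the receptor Pdgfrb was called (0.69, adjusted p = 0.0238, and 0.0627 to 0.155 without any of 4 arrays). None of 9 erythroid, 12 foregut and lung, 7 liver, 11 neural or 9 skeletal muscle genes was called. Erythroid genes varied between samples of both chambers. Their sums were 22653, 33234 and 48308 on the atrial arrays and 15759, 34841 and 23116 on the ventricular arrays, and 8 of the 9 had their highest atrial value on array 3. The lists hold only markers that passed the intensity filter. Markers on the array that were not measured, among them Foxn1, Rag1 and Pax7, were left out. Whether a tissue was absent from the samples therefore cannot be read from these lists. The foregut and lung genes summed to 4717 to 6365 in atria and 4758 to 5728 in ventricles.

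Of the sarcomere, calcium and channel, and transcription factor lists 1 of 24, 1 of 21 and 1 of 21 genes were called, shares near the 5.11% of all genes called higher. Of 24 sarcomere genes Myh6, the alpha heavy chain, was called higher (8813, 18236 and 14036 against 8550, 9483 and 9247, 0.53 ± 0.15, adjusted p = 0.0305). It was no longer called without atrial array 2 or 3 or ventricular array 1 or 3 (adjusted p = 0.0524 to 0.189). The troponin I genes Tnni1 and Tnni3 gave -0.14 and -0.07 (adjusted p = 0.67 and 0.831). Casq1, a calsequestrin, was higher by 0.80 (adjusted p = 0.0121, with 0.135 without ventricular array 1 and 0.128 without atrial array 3), and 20 of 21 calcium and channel genes were not called. Gata5, an endocardial and epicardial GATA factor, was the called one of 21 cardiac transcription factors (0.88, adjusted p = 0.0446, and 0.0709 to 0.373 without any of 4 arrays). Nkx2-5, a core factor of all heart muscle, measured 2758, 3341 and 2927 against 3370, 4114 and 3572 (-0.29 ± 0.11, adjusted p = 0.123). None of 31 cell cycle genes was called, and their median was -0.11.

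Of 22 glycolysis and glycogen genes 5 were called lower and none higher, where 2.37% of all genes were called lower. Hk2, a hexokinase, measured 1599, 1571 and 1092 against 2261, 2372 and 2019 (-0.65 ± 0.11, adjusted p = 0.000626). The others were the phosphofructokinases Pfkp and Pfkl, Pkm and the lactate exporter Slc16a3. Without ventricular array 1 there were 3, with the calls of Pfkl and Pkm lost (adjusted p = 0.132 and 0.304). Without atrial array 3 Hk2 alone was called, and Pfkp, Pfkl, Pkm and Slc16a3 gave adjusted p = 0.091, 0.172, 0.174 and 0.264. In these 2 fits 0.655% and 0.385% of all genes were called lower. Slc16a3 was also lost without ventricular array 2 (adjusted p = 0.126), Pkm without atrial array 1 (0.118), and Pfkl without atrial array 1 or ventricular array 2 or 3 (0.0542 to 0.0982). Of 23 fatty acid genes Eci1 and Acads, enzymes of beta-oxidation, were called lower (-0.66 and -0.44, adjusted p = 0.0115 and 0.032), and neither without ventricular array 1 (adjusted p = 0.0852 and 0.178) or without atrial array 3 (adjusted p = 0.146 and 0.157). With atrial array 3 alone, 8 of the 22 and 9 of the 23 were called lower, where 3.58% of all genes were. Of 29 oxidative phosphorylation genes 1 was called (Ogdh, -0.35, adjusted p = 0.0323, and 0.06 to 0.25 without any of 4 arrays). All 29 had their highest atrial value on array 2. The same held for 21 of 24 sarcomere, 17 of 21 calcium and channel, 19 of 22 glycolysis and 17 of 23 fatty acid genes, and for 4213 of all 12983 genes. In the ventricles, array 1 had the highest summed intensity for each of these lists. For oxidative phosphorylation the sum was 334100 there against 234997 and 256884 on ventricular arrays 2 and 3. Among 14 hypoxia genes 4 were called lower and 1 higher, where 2.37% and 5.11% of all genes were. There were 2 lower and 0 higher without ventricular array 1, where 0.655% and 1.90% of all genes were. Without atrial array 3 there were 1 lower and 1 higher, where 0.385% and 2.10% were. Vegfa, the endothelial growth factor, measured 1969, 1711 and 1031 against 2604, 2211 and 2147 (-0.60 ± 0.18, adjusted p = 0.0462, and 0.0556 to 0.36 without atrial array 3 or any ventricular array). Adm, which encodes the vessel peptide adrenomedullin, measured 262, 641 and 363 against 111, 162 and 205 (1.26 ± 0.29, adjusted p = 0.00767, with 0.0754 without ventricular array 1 and 0.0513 without atrial array 2).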

How the data were processed

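The authors deposited 1 table of linear intensities for 45101 Affymetrix probe sets on 36 arrays; the sources used here do not say how these were computed and scaled. Each array's deposited intensities had a 2% trimmed mean of 500.0, and this scaling was kept. Groups and replicate numbers came from the titles. After 64 control probe sets were left out, log2(intensity + 17) was taken, and 27256 probe sets were tested, those whose intensity exceeded the overall median (171.8) on 3 or more arrays. Intensity shows no read depth; the number of arrays limits the precision. Limma 3.58.1 in R 4.3.3 fitted 12 group means to all 36 arrays (24 residual and 5.7 prior degrees of freedom, intensity trend), two-sided, with Benjamini-Hochberg adjustment over all 27256 probe sets, and an adjusted p below 0.05 was called. Symbols came from the platform annotation: 23089 tested probe sets had 1 symbol, 601 several and 3566 none. Each of 12983 genes was represented by its brightest single-gene probe set. Other probe sets of a called gene need not be called. For Csf1r and Pfkp 1 of 3 tested was called. For Isl1, Tbx5, Hand1, Lyve1, Adm, Fst, Gata5, Notch2, Dll4, Ogdh, Ltbp1 and Pdgfrb it was 1 of 2. All tested ones were called for Olfm1, Fgf12, Vsnl1, Shox2, Dkk3, Upk3b, Eln, Myh6, Rdh10, Pfkl and Vegfa. The fit was tested on simulated data.

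Named were the 10 largest called differences in each direction without overlap, up to 4 called members of a list, up to 6 genes of the neighbouring-age sets in each direction and a fixed set of chamber genes; not all are printed, and others were chosen after their values were seen. The comparison, its members and the 28 lists (464 measured genes) were chosen with earlier results of these data known. Alternatives were quantile normalization, centring on the median, a pseudocount of 1 or 68, testing without a filter or with one at 583.3, the compared arrays alone, no trend, array weights, a replicate block, the mean of probe sets, and arrays left out.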

Additional observations from a re-analysis of the deposited data

How the results depend on the processing

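The 1684 called probe sets became 2280 with quantile normalization and 1629 with median centring. The number was 29 with the compared arrays alone, 670 with array weights (0.30 for ventricular array 1, 0.64 to 1.12 for the others), 205 without atrial array 3 and ventricular array 1 together, and 1080 without atrial arrays 1 and 2 and ventricular array 1, an alternative chosen after seeing the data. Leaving out 1 array gave 545 (atrial array 3) to 1954 (atrial array 2), with 564 without ventricular array 1. Of the 1684, 511 were called without atrial array 3 and 513 without ventricular array 1. With atrial arrays 1 and 2 left out 1764 were called, 49.7% of them higher against 61.5%. With probe sets averaged per gene 1036 genes were called against 971. The replicate block gave 553. Arrays of the 2 chambers with the same number did not deviate together (correlations of -0.34 to 0.16 over 15 pairs of 5 ages, 1 above 0.1). With 3 arrays a group this cannot show whether samples of equal number share an animal or litter. Against the neighbouring ages the 0 calls became 4 with atrial arrays 1 and 2 left out, 4 without atrial array 3 and ventricular array 1, and 0 to 65 when 1 array was left out. The cause of these changes was not tested.

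Some uncalled differences changed sign. Leaving out 1 array moved Nppa from -0.31 to 0.38, Myl4 from -0.15 to 0.27, Bmp10 from -0.99 to 0.28, Nppb from -0.35 to 0.51, Ckm from -1.56 to 0.28, Tnni1 from -0.33 to 0.09 and Tnni3 from -0.25 to 0.09. Without atrial array 3 and ventricular array 1 Myl2 was 0.03, Myh7 0.02, Ckm 0.62, Tnni1 0.12 and Tnni3 0.15. Without atrial arrays 1 and 2 Nppb was 0.34, and without ventricular array 1 as well Nppb was 0.34, Bmp10 0.06 and Tnni1 0.03. Nppb was 0.01 with median centring, Tnni3 0.02 with quantile normalization, and with array weights Tnni1 was 0.01 and Tnni3 0.04. Of 98 genes followed (83 were tested with the strict filter and 97 with quantile normalization), 65 lost their call with the compared arrays alone, 37 without atrial array 3, 37 without ventricular array 1 and 29 with the replicate block. Without atrial array 3 and ventricular array 1 together 55 lost it, and with array weights 30.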

Other observations

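Among the 10 genes with the largest range over the 3 atrial arrays were Hbb-bh1, Clca3a2, Dpt and Afp. Hbb-bh1, an embryonic globin gene, measured 1156, 206 and 8604 on atrial arrays 1 to 3, and 107, 3408 and 248 on the ventricular arrays. Clca3a2, a chloride channel accessory gene, measured 1439, 71 and 42 in atria. Dpt, the matrix gene dermatopontin, measured 2439, 1437 and 116. Afp, the fetal liver and yolk sac gene alpha-fetoprotein, measured 816, 124 and 2463 in atria and 2, 681 and 17 in ventricles.

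Xist, the RNA of the inactive X chromosome, measured 5303, 3111 and 6049 in atria and 414, 4501 and 4849 in ventricles. It was among the 10 genes that varied most over the ventricular arrays, with its low value on ventricular array 1. The sex of the embryos is not in the labels, and the part of this difference in the other values of that array was not tested.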
